A study of Homo sapiens with 6 samples.

Results

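The genes described here encode subunits of the DNA polymerases and the primase that copy chromosomal DNA: POLA1, POLA2, PRIM1, PRIM2, POLD1, POLD2, POLD3, POLE, POLE2 and POLE3. They were chosen by name, as every probe set whose only gene symbol in the platform annotation was that of a subunit. These are 10 of the 19775 genes with such a probe set, and they were read by 13 of the 54675 probe sets. The cells were 76N, human mammary epithelial cells that the labels call normal, grown in DFCI-1 medium. Of 6 cultures, 3 had been transfected with a control siRNA and 3 with an siRNA against Ecd, the product of ECD, and total RNA from each was put on 1 Affymetrix array. The labels give no siRNA sequence, dose or time to harvest.

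Chromosomal DNA is copied by 3 polymerases. Polymerase alpha, bound to primase, lays down a short RNA-DNA primer, after which polymerase epsilon extends mainly the leading strand and polymerase delta the lagging strand. Each has a catalytic subunit (POLA1, POLD1, POLE) and smaller subunits that hold the complex together or tie it to the clamp and helicase. Their transcripts are generally more abundant in dividing than in resting cells, and E2F factors are known to act on several of the genes.

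The promoters of 9 of the 10 genes were in the RefSeq table (GRCh38.p14), each given as 250 bases before to 50 bases after a start site, with 13 windows because some genes have several starts. POLD3 had no entry. The proximal stretches below are shown because 4 of them hold an exact E2F motif, and the fifth is that of a gene with a large fall and no such motif. They run 5′ to 3′ on the gene's own strand from 150 bases before the start. Capitals mark the E2F motif, and in PRIM1 a CCAAT box.
POLA2 (chr11:65261812-65261961, plus strand): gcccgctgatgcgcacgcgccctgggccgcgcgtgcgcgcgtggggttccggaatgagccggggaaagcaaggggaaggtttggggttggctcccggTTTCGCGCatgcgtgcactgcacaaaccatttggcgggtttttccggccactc
POLE2 (chr14:49688212-49688364, minus strand): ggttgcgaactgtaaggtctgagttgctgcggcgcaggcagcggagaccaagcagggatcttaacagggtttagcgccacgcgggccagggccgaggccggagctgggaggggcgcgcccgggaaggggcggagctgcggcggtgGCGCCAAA
POLE (chr12:132687343-132687492, minus strand): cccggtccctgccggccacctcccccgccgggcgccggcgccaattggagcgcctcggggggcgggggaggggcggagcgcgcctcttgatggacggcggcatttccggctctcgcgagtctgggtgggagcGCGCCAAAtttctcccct
POLA1 (chrX:24693768-24693917, plus strand): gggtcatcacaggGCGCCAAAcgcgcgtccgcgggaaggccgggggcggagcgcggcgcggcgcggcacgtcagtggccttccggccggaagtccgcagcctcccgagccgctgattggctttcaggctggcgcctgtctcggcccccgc
PRIM1 (chr12:56752324-56752473, minus strand): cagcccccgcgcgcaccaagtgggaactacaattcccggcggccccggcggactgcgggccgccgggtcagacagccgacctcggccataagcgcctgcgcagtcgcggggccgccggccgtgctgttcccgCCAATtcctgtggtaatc

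The E2F motif was searched as TTTCCCGC, TTTCGCGC, TTTGCCGC and TTTGGCGC on both strands. It was found in 4 of the 13 windows of the subunit genes and in 3.31% of the 35116 promoter windows of all genes. Positions are counted from the start site as +1, with no 0. The match in POLA2 lay at -53 to -46, that in POLE at -18 to -11, that in POLA1 at -137 to -130 and that in POLE2 at -5 to 3, across the start. The CCAAT box (CCAAT) was present in 4 of the 13 windows, those of POLA1, PRIM1, POLD2 and POLE, and in 34.6% of all windows. The GC box (GGGCGG) was present in 8 of the 13 windows against 45.0% of all. The 8 include windows of POLE3 that overlap each other. Counted by gene, it was present in 6 of the 9 against 48.3% of all genes. The cell cycle homology motif, searched as TTTGAA or TTCGAA, was present in 1 of the 13, a start of POLE3, against 16.4% of all. In the subunit windows no CCAAT match overlapped a match of another motif, but in POLE a CCAAT lies on each strand in overlapping letters. Median GC content was 66.0% in the subunit windows and 58.7% in all windows. A match is a run of letters only, and binding was not measured.

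Values are MAS5 signals, which are linear intensities that the authors' software had scaled to the same average on each array. Medians over all probe sets were 128.7 to 147.6 per array. The targeted transcript was lower with Ecd siRNA: ECD read 1076.6, 1011.4 and 1007.2 with control and 588.9, 599.8 and 542.5 with Ecd siRNA, which is 55.9% of control (log2 change -0.82, limma adjusted p = 0.000177). All 11 mammary epithelial markers with a single-symbol probe set, KRT5 and KRT14 among them, lay above the filter. Their summed signals were 120983 to 131329 in control and 127414 to 139039 in Ecd siRNA arrays. At a limma adjusted p under 0.05, KRT18 fell (log2 change -0.52) and CDH3 (0.38), CDH1 (0.25) and ITGB4 (0.29) rose. The other 7, with KRT5 and KRT14, did not pass. Fibroblast markers summed to 4174.5 to 4779 in control and 7054.9 to 7907.3 in Ecd siRNA arrays. Of those 10 markers 5 lay above the filter, FAP gave most of the sum, and COL3A1, PDGFRA, PDGFRB, LUM and POSTN were under the filter. FAP (log2 change 1.03) and COL1A1 (0.52) rose at a limma adjusted p under 0.05. COL1A2 (-0.17), DCN (0.11) and THY1 (-0.32) did not pass. The part of the fibroblast markers in the results below was not tested. The 5 endothelial markers summed to 900.4 to 998.5 in control and 790.8 to 897.6 in Ecd siRNA arrays, and the 4 immune markers with a probe set to 272.3 to 399.7 and 168.1 to 321.5. The ratio of 3′ to 5′ signals of GAPDH, a sign of RNA quality, was 0.974 to 0.980 in control and 0.974 to 1.003 in Ecd siRNA arrays. That of ACTB was 1.066 to 1.108 in control and 1.065 to 1.158 in Ecd siRNA arrays.

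Transcripts of the replicative polymerases and primase were lower with Ecd siRNA. Of the 10 genes, 8 fell, 0 rose, and POLE and POLD3 did not pass the threshold, a limma adjusted p of 0.05 over all 14614 genes tested. At an unadjusted p under 0.05 all 10 were lower and 0 higher, beside 16.5% lower and 15.9% higher of all genes tested. At the adjusted threshold 11.0% of all genes tested fell and 10.1% rose, 21.2% in all. The median log2 change of the 10 genes was -0.73, with a range of -1.67 to -0.31, beside 0.008 for all genes tested. In the brightest probe set of all 10 the Ecd siRNA arrays lay wholly below the control arrays, as in 18.4% of all genes tested. The 3 with the largest falls, POLA2, PRIM1 and POLE2, were more than 2-fold lower, which held for 2.40% of all genes tested. Further probe sets of POLA2 and POLD3, given below, overlapped between groups. In RNA from whole cultures, fewer cells in S phase and less transcript per cell cannot be told apart.

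**Figure D1:**
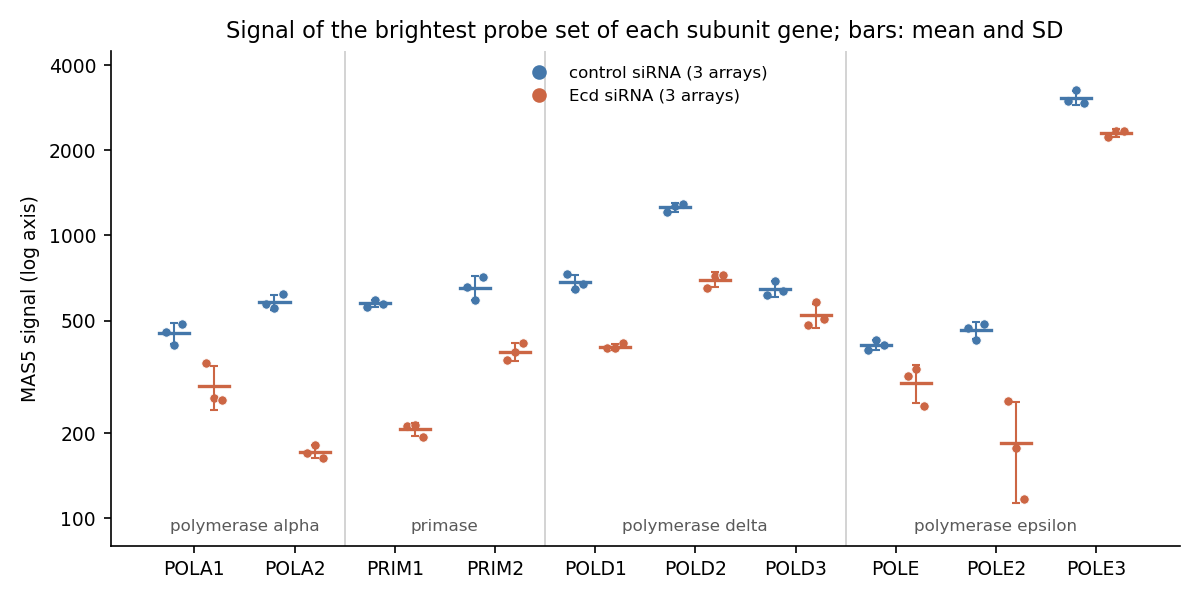
MAS5 signal (log axis) of the brightest probe set of each of the 10 genes in the 3 control siRNA (blue) and 3 Ecd siRNA (orange) arrays, with points for arrays, horizontal bars for means and error bars for SD. In all 10 genes the highest Ecd siRNA array lies below the lowest control array, with the widest spread in POLE2 (117.3 to 260.6).

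Both polymerase alpha genes fell, POLA2 by the most of the 10 in its brightest probe set, although the fall was not called as the mean of its 3 probe sets (-0.35, limma adjusted p = 0.257). POLA2, its B subunit, which links the catalytic subunit to other fork proteins, had signals of 571.3, 553.2 and 619.1 in control and 170, 181.8 and 163.8 in Ecd siRNA arrays. Every Ecd siRNA array was far under every control array, and each group was tight. Mean signal went from 581.2 ± 34.0 to 171.9 ± 9.14 (SD, n = 3 each), or 29.6% of control. The log2 change was -1.67 (SE 0.13, limma adjusted p = 1.32e-05), rank 128 from the lowest among the 14614 genes.

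POLA1, the catalytic subunit, had signals of 456.7, 410.4 and 487.7 in control and 352.6, 265.3 and 261.6 in Ecd siRNA arrays. Ecd siRNA replicate 1 stood closest to the controls. The log2 change was -0.61 (SE 0.15, limma adjusted p = 0.0169) and 64.9% of the signal remained. Its call depended on single arrays and did not hold without control replicate 1 (limma adjusted p = 0.0574), control replicate 3 (0.0617), Ecd siRNA replicate 2 (0.0592) or Ecd siRNA replicate 3 (0.0546), at log2 changes of -0.60 to -0.53.

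The primase pair also differed in size. PRIM1, which makes the RNA primer, had signals of 559.6, 593.3 and 574.5 in control and 211.5, 212.9 and 194.4 in Ecd siRNA arrays. Both groups were tight and far apart, with means of 575.8 ± 16.9 and 206.3 ± 10.3 (SD, n = 3 each) and 35.8% remaining. The log2 change was -1.41 (SE 0.12, limma adjusted p = 2.58e-05). PRIM2, the large primase subunit, which carries an iron-sulfur cluster, had signals of 659.2, 590.9 and 713.7 in control and 361.7, 387.4 and 416.7 in Ecd siRNA arrays. It fell by 0.73 on the log2 scale (SE 0.12, limma adjusted p = 0.00164), leaving 59.4% of the control signal.

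Polymerase delta genes fell by similar amounts in its catalytic and B subunits. POLD1, the catalytic and proofreading subunit, had signals of 730.7, 645.1 and 674.9 in control and 398.5, 398.7 and 416.2 in Ecd siRNA arrays. The Ecd siRNA arrays were tight, at 404.5 ± 10.2 (SD, n = 3), and 59.2% of the control mean remained (log2 change -0.73, SE 0.11, limma adjusted p = 0.000797). POLD2, the B subunit that binds the catalytic chain, had signals of 1209, 1272.4 and 1294.9 in control and 650.1, 721.3 and 723.4 in Ecd siRNA arrays. That left 55.5% (log2 change -0.84, SE 0.09, limma adjusted p = 0.000119).

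POLD3, a subunit that contacts the sliding clamp PCNA and also acts in break-induced replication, had signals of 615.1, 692.9 and 637.1 in control and 481.1, 579.4 and 506.1 in Ecd siRNA arrays. The groups did not overlap, but their gap, 579.4 against 615.1, was the narrowest in proportion among the 10 genes. The log2 change was -0.31 (SE 0.11, 95% interval -0.56 to -0.05) short of the threshold (limma adjusted p = 0.0854). It passed in 0 of the 19 alternative settings, and was at -0.018 when its probe sets were averaged.

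In polymerase epsilon the catalytic subunit did not pass the threshold and the B subunit had the widest spread. POLE had signals of 392.9, 425.4 and 408.7 in control and 319.1, 337.1 and 249.3 in Ecd siRNA arrays, where replicate 3 lay lowest. Its log2 change was -0.43 (SE 0.15, 95% interval -0.75 to -0.10, limma adjusted p = 0.0628), with 73.8% remaining. It also passed in 0 of the 19 alternatives, with adjusted p from 0.0532 to 0.18.

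POLE2, the B subunit of epsilon, which joins the catalytic chain to the helicase, had signals of 470.3, 426.4 and 487.8 in control and 260.6, 176.8 and 117.3 in Ecd siRNA arrays. Its Ecd siRNA arrays differed among themselves by more than those of any other gene of the 10, with a mean of 184.9 ± 72.0 (SD, n = 3) against 461.5 ± 31.6. It fell by 1.31 on the log2 scale (SE 0.24, limma adjusted p = 0.00281), and leaving out 1 array at a time gave -1.57 to -1.05, called each time. POLE3, a small histone-fold subunit that also serves in chromatin remodelling, had signals of 3000.3, 3267 and 2952.1 in control and 2226.1, 2333.9 and 2349.3 in Ecd siRNA arrays. The shift was modest but tight, at -0.41 (SE 0.07, limma adjusted p = 0.0026), with 74.9% remaining.

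**Figure D2:**
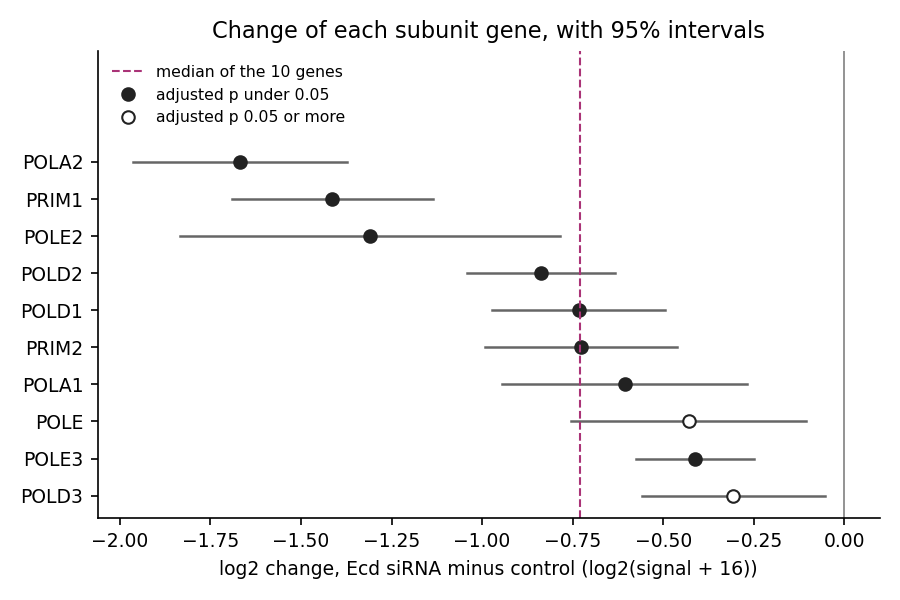
Log2 change (Ecd siRNA minus control, on log2(signal + 16)) of each gene with its 95% interval from limma, ordered by size; filled points have an adjusted p under 0.05 and the dashed line is the median of the 10, -0.73. POLA2, PRIM1 and POLE2 lie lowest, and the intervals of POLE and POLD3 end below 0 although their adjusted p is above the threshold.

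The order of the changes, from the largest fall, was POLA2, PRIM1, POLE2, POLD2, POLD1, PRIM2, POLA1, POLE, POLE3 and POLD3. It is the order of the brightest probe sets, and with averaged probe sets or with those lacking _s, _x or _a POLA2 was no longer first (-0.35 and 0.00031). The 95% intervals of neighbours in this order overlapped throughout. Per array, the median log2 deviation of the 10 genes from their control means was -0.03, -0.03 and 0.02 with control siRNA. With Ecd siRNA it was -0.77, -0.74 and -0.72. The spread of these medians between arrays of a group was small beside the shift. Some genes spread more, with POLE2 at -0.79, -1.31 and -1.84 and POLA1 at -0.34, -0.73 and -0.75 in the Ecd siRNA arrays. Among the Ecd siRNA arrays, replicate 1 was lowest in 5 of the genes and replicate 3 in the other 5, so no array was low throughout.

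Subunits of the same enzyme were then compared directly, in 7 pairs, by their log2 difference on each array. In an exact permutation test 3 against 3 arrays allow no p below 0.1, so no difference could pass a threshold of 0.05, and the adjusted p over the 7 pairs is 0.14 or more. The log2 change of POLA2 lay below that of POLA1, with a difference of 1.06 (95% interval 0.65 to 1.47), and that of PRIM1 lay below those of PRIM2, at -0.69 (-1.05 to -0.32), and POLA1, at 0.81 (0.40 to 1.22). The change of POLE2 exceeded that of POLE by 0.88 (0.23 to 1.54) and that of POLD1 exceeded that of POLD3, at -0.43 (-0.79 to -0.06). In these 5 pairs the groups did not overlap and the two-sided exact permutation p was 0.1, the smallest possible. POLD1 and POLD2 differed by 0.10 (95% interval -0.14 to 0.35, exact permutation p = 0.3) and POLE and POLE3 by -0.02 (-0.41 to 0.38, exact permutation p = 1), and their groups overlapped. The POLA1 and POLA2 difference turned to -0.25 when a gene's probe sets were averaged and to -0.61 with probe sets lacking the _s, _x or _a ending.

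**Figure D3:**
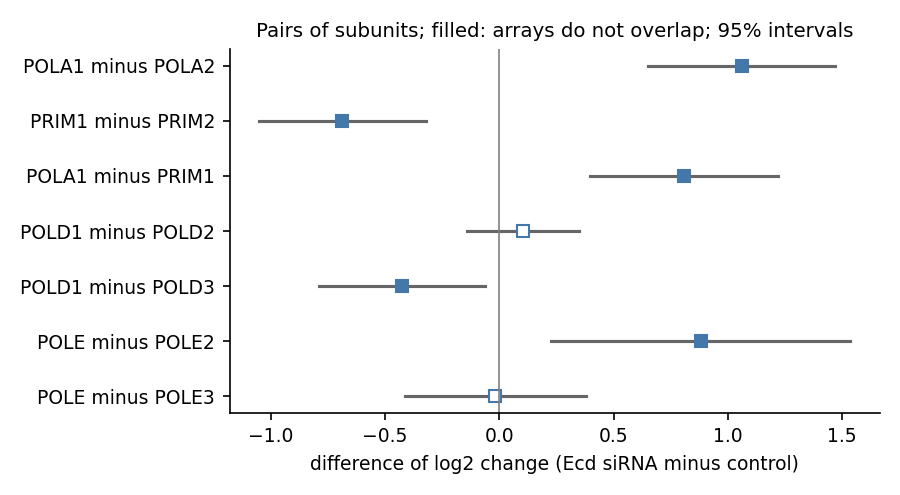
Difference of log2 change between 2 subunits of an enzyme (first minus second), with 95% intervals over the 6 arrays; a positive value means that the second gene fell by more. The 5 filled pairs had no overlap between groups, and the open squares, POLD1 with POLD2 and POLE with POLE3, lie near 0.

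That reversal arises because POLA2 was read by 3 probe sets that did not go together. The brightest, 204441_s_at, gave the fall above. Probe set 244575_at had signals of 210.4, 257.1 and 167 in control and 192.4, 219.6 and 214.6 in Ecd siRNA arrays, with full overlap and a log2 change of 0.00031 (95% interval -0.43 to 0.43). The dim 236546_at had signals of 30.2, 113.1 and 92.1 in control and 108.1, 158.4 and 89 in Ecd siRNA arrays, also overlapping (log2 change 0.61, limma adjusted p = 0.396). Which transcript parts the probe sets bind was not given in the sources used here.

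POLD3 had a second probe set, 239816_at, with signals of 122.8, 259.8 and 112.1 in control and 250.1, 149.2 and 179.8 in Ecd siRNA arrays. The groups overlapped (log2 change 0.27, limma adjusted p = 0.635). PRIM2 had 4 further probe sets that the annotation assigns to both PRIM2 and its copy PRIM2BP, so they were not tested. Whether the PRIM2 probe set tested above, which is annotated to PRIM2 alone, also binds the PRIM2BP transcript was not tested. Of these 4, 215708_s_at had 511.3, 386.4 and 454.3 in control and 169, 195.3 and 218.4 in Ecd siRNA arrays, and 1554885_a_at had 337.3, 388.2 and 351.7 against 190, 256.1 and 259.7. Both were lower without overlap, at 43.1% and 65.5% of control, beside 59.4% in the PRIM2 probe set. Of the 27036 single-symbol probe sets above the filter, 16.5% were lower without overlap. The other 2 shared probe sets of PRIM2 were under the filter, with mean signals of 23.2 and 4.38 over the 6 arrays. Of the 13 single-symbol probe sets 8 fell when every probe set was tested on its own, against 8.67% of the 27036 so tested.

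**Figure D4:**
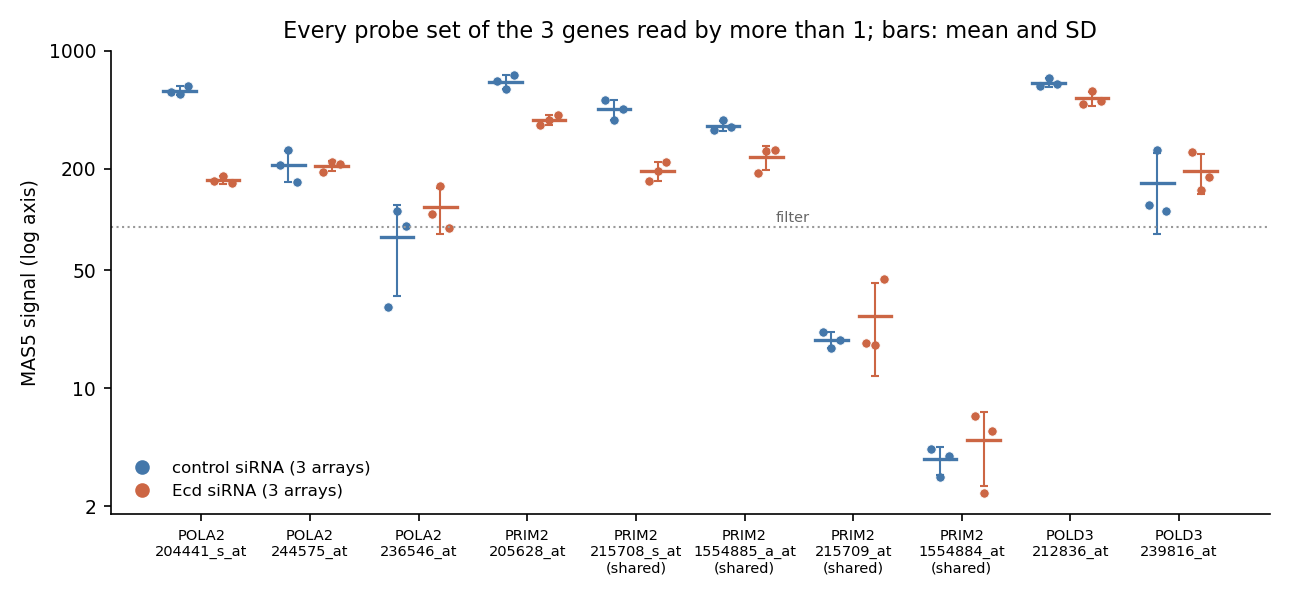
MAS5 signal (log axis) in the 6 arrays for every probe set of POLA2, PRIM2 and POLD3, the genes read by more than 1; points are arrays, bars mean and SD, "shared" marks probe sets also assigned to PRIM2BP, and the dotted line is the filter at 90.2. The brightest probe set of each gene is lower with Ecd siRNA, while 244575_at, 236546_at and 239816_at overlap between groups.

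Most genes whose products work with these polymerases fell too. Of 27 such partners (the clamp PCNA and its loaders, the single-strand binding protein RPA, helicase factors, fork protection and primase-stimulating proteins) 25 were tested. By limma's adjusted p 19 fell, 6 did not pass and 0 rose, beside 11.0% and 10.1% of all genes tested that fell and rose. At an unadjusted p under 0.05, 20 were lower and 0 higher, beside 16.5% and 15.9% of all genes tested. The median of the 25 was -1.05. The primase-stimulating genes STN1 and CTC1, both at 0.15 and named after their values were seen, did not pass. The 4 with the smallest adjusted p were the helicase subunits GINS1 (-2.17) and GINS2 (-2.14), the clamp loader subunit RFC3 (-1.49) and RPA3 (-1.05, limma adjusted p = 1.28e-05). GINS2 was at -0.63 in its probe set without an _s, _x or _a ending, and was then not called, and RFC3 was at -0.72 when its probe sets were averaged. Signals of RFC3, for example, were 2268.6, 2367.2 and 2298.6 in control and 722.1, 889.3 and 827.6 in Ecd siRNA arrays.

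DNA polymerases outside this set, most of which act in repair, in bypass of damage or in mitochondria, were at a median of -0.10. At an unadjusted p under 0.05, 5 of the 18 tested were lower and 1 (POLI) higher, beside 16.5% and 15.9% of all genes tested. By limma's adjusted p 4 (22.2%) fell, 14 did not pass and 0 rose, beside 11.0% and 10.1% of all genes tested that fell and rose. The 4 were POLH, a bypass polymerase (-0.54, limma adjusted p = 0.00666), POLQ, the end-joining polymerase theta (-1.43), PRIMPOL, a primase that restarts stalled forks (-0.43), and POLE4, the fourth epsilon subunit (-0.28, limma adjusted p = 0.048). With averaged probe sets POLQ was at -0.80 and POLH at -0.23, and neither was called. On leaving out each of the 6 arrays in turn, POLH was called 6 times, POLQ 3 times, PRIMPOL 2 times and POLE4 0 times. The list held 1 called gene without control replicate 1 or without Ecd siRNA replicate 3, and 2 without control replicate 2, control replicate 3 or Ecd siRNA replicate 2. POLI and KAT2A were named after their values were seen, and so was POLD4, the smallest delta subunit, which completes that enzyme. It had signals of 920.2, 849.2 and 555.9 in control and 440.4, 816.2 and 972 in Ecd siRNA arrays, with overlap and a log2 change of -0.10 (limma adjusted p = 0.844).

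POLE3 also pairs with CHRAC1 in the CHRAC chromatin remodelling complex. At an unadjusted p under 0.05, 1 (KAT2A) of 7 genes of this complex and of the ATAC acetylation complex was lower and 1 higher. Those shares were 16.5% and 15.9% of all genes tested. By limma's adjusted p 0 of the 7 fell, 1 rose and 6 did not pass, beside 11.0% and 10.1% of all genes tested that fell and rose. The median of the 7 was -0.09. The 1 that rose was YEATS2 (0.48, limma adjusted p = 0.00297), at -0.07 in its probe set without an _s, _x or _a ending. KAT2A (-0.27), CHRAC1 (-0.22) and BAZ1A (-0.09) did not pass, with limma adjusted p from 0.149 to 0.46.

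**Figure D5:**
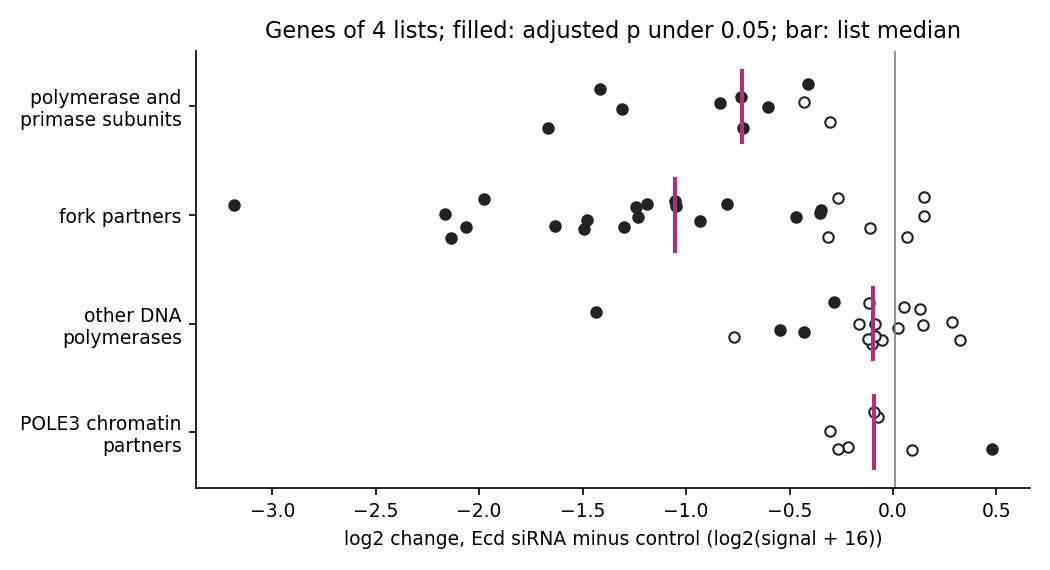
Log2 change (Ecd siRNA minus control) of each tested gene in 4 lists; points are genes, filled where the adjusted p was under 0.05, with a bar at each list's median. The subunit genes (median -0.73) and their fork partners (-1.05) lie left of 0, and the other DNA polymerases (-0.10) and POLE3 chromatin partners (-0.09) centre near 0.

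The 4 genes with an E2F match spanned the order of changes, with POLA2 at -1.67 in its brightest probe set, POLE2 at -1.31, POLA1 at -0.61 and POLE at -0.43. PRIM1, at -1.41, had no match in its window. Over all tested genes with a promoter entry, 21.9% of the 708 with a match fell, against 10.8% of the 11000 with none. The 708 include the 4 subunit genes, and the shares take no account of GC content or signal level. Whether E2F factors had a part in the falls was not tested.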

How the data were processed

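Total RNA from 6 cultures was measured on 1-colour Affymetrix arrays, and groups and replicate numbers came from the sample titles, which call the replicates biological. The authors deposited 1 linear intensity per probe set and array, MAS5 signals per the submitters' processing notes, with 0 missing values and no detection calls; the MAS5 version was not given in the sources used here. That scaling hides a change shared by all transcripts. Values became log2(signal + 16), which understates changes of dim transcripts. The brightest single-symbol probe set stood for a gene, and probe sets in the upper 60% by mean signal (90.2) were tested. limma 3.58.1 under R 4.3.3 (eBayes with trend, Benjamini-Hochberg) compared the groups without covariates, and was tested on simulated data. The number of arrays limits the precision. Promoters came from RefSeq (GRCh38.p14).

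The genes and lists were chosen with earlier results of these data known. Named genes were all subunits, up to 4 genes with the smallest adjusted p per further list, and the 5 genes nearest in pattern. Alternatives covered pseudocounts of 1 and 64, quantile and median scaling, filters, probe set choice, trend, array weights, the replicate block and each array left out. Filtering on the mean of log2 values and the settings for the subunit pairs were added after seeing the data. Same-numbered arrays of the groups had correlations of deviations of -0.003, 0.08 and 0.16 over 14614 genes. For arrays of unlike number these correlations ran from -0.14 to 0.05. The titles do not say that equal numbers pair the cultures, and the numbers were not taken as pairs. Whether the cultures were paired was not tested.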

Additional observations from a re-analysis of the deposited data

How the results depend on the processing

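The subunit genes that fell numbered 7 or 8 of 10 and 0 rose in each alternative run, the 7 arising with averaged probe sets, with probe sets lacking _s, _x or _a, and on leaving out control replicate 1, control replicate 3, Ecd siRNA replicate 2 or Ecd siRNA replicate 3. Their median was -0.67 under each of a pseudocount of 64, averaged probe sets and probe sets lacking _s, _x or _a, and ran from -0.78 to -0.70 on leaving out 1 array. The replicate block, for numbers that were not taken as pairs in the main fit, gave 8 falls as well. For the fork partners, the median was -0.76 with averaged probe sets and -0.85 with probe sets lacking _s, _x or _a; 1 rose with averaged probe sets (STN1) and 2 with every probe set on its own (STN1 and RPA1), named after their values were seen. Other DNA polymerases that fell numbered 2 with no filter, 2 with no intensity trend, 1 with averaged probe sets, and 1 to 3 on leaving out 1 array. Of the POLE3 chromatin partners 0 rose with averaged probe sets or with probe sets lacking _s, _x or _a, and their median ran from -0.13 to -0.069 on leaving out 1 array.

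With probe sets lacking _s, _x or _a, POLA2 was at 0.00031, YEATS2 at -0.066 and CXCL2 at 0.23. POLA2 probe set 244575_at, near 0 throughout, was at -0.0022 with a pseudocount of 64, -0.0063 with quantile normalization, -0.0088 with a common median, and at -0.15 to 0.14 on leaving out 1 array. The POLA1 less POLA2 difference was -0.25 with averaged probe sets and -0.61 with probe sets lacking _s, _x or _a. POLE less POLE3 was 0.027 with a pseudocount of 64, 0.0087 with quantile normalization, and -0.088 to 0.12 on leaving out 1 array. Shifts under other choices of probe set follow from probe sets of a gene that differ, as those of POLA2 do. The cause of the other shifts was not tested. The 3 arrays a group limit the precision of all values.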

Other observations

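The 5 tested genes nearest in pattern to the per-array median of the 10 subunit genes, by the root mean square difference of log2 deviations over the 6 arrays, were LPXN (difference 0.028), CXCL2 (0.036), IL1A (0.037), UTP18 (0.037) and COTL1 (0.039). LPXN encodes the adaptor leupaxin, and its signals were 5509.3, 5256.1 and 5508.3 in control and 3117, 3163.8 and 3270.1 in Ecd siRNA arrays. The chemokine gene CXCL2 (log2 change -0.71), the interleukin 1 alpha gene IL1A (-0.72), the ribosome biogenesis gene UTP18 (-0.79) and the actin-binding protein gene COTL1 (-0.77) are likewise not DNA replication genes. These values rest on the brightest probe sets. With averaged probe sets LPXN was at -0.41, CXCL2 at -0.097 and UTP18 at -0.41, none of them called, and IL1A was at -0.47. In probe sets lacking _s, _x or _a, CXCL2 was at 0.23 and IL1A at -0.23, neither called.

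POLE starts within 1000 bases of PXMP2, a peroxisomal membrane protein gene on the opposite strand. PXMP2 had signals of 761.1, 809.3 and 796.2 in control and 404.4, 581.2 and 428.2 in Ecd siRNA arrays, and fell by 0.74 on the log2 scale (SE 0.14, limma adjusted p = 0.00353), beside -0.43 for POLE, which did not pass. The difference between these 2 genes was not tested. POLE3 starts as near to C9orf43, which was not among the genes tested.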
